A study of Apocynum venetum with 18 samples.

Results

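Leaves of Apocynum venetum, a salt-tolerant bast fibre plant of the dogbane family, held 77 transcripts whose mean level at each later time of a 48 h course in 300 mmol/L NaCl was at most 25% of their mean at 0 h. They were chosen from 45222 features that passed a filter on low counts, of 53545 deposited, from TMM-scaled CPM, the estimated reads of a feature per 1000000 reads of its library after scaling between libraries. A member had a 0 h mean of at least 5 CPM, means at 2, 6, 12, 24 and 48 h of at most 25% of the 0 h mean, a 48 h mean of at least 0.2 CPM and a mean over the 18 libraries under 700 CPM. Of the features tested, 18281 reached 5 CPM at 0 h and 84 of these had all 5 later means at or under 25%. The 48 h floor then left 77, and the upper limit removed none.

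The study sampled leaves of plants labelled wild P. apocinae at 0, 2, 6, 12, 24 and 48 h, with 3 libraries at each time. Per the series' design text, 18 seedlings were used, and plants were washed and moved to nutrient solution with 300 mmol/L NaCl or to one without NaCl. The labels of all 18 libraries, the 3 at 0 h included, name the solution with 300 mmol/L NaCl, and no library is labelled as sampled from the solution without it. Salt, transfer to new solution, time of day and time since sampling began therefore cannot be told apart in any comparison with 0 h. The labels do not say whether the replicates of a time were separate plants, so that the spread behind each p-value may be technical.

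When roots meet high salt, water uptake drops first and sodium and chloride build up in the leaf later. Leaves answer the first phase within hours with closed stomata, less growth and less photosynthesis, and transcripts fall when their synthesis slows or their decay speeds up. RNA sequencing of whole leaves reads the level only, so fewer cells of a type and less RNA per cell cannot be told apart. The features are Trinity transcripts, contigs assembled from the reads without a genome. The deposited annotation columns held an entry for 4 of the 77 members (5.19%) and for 6.46% of all features. A length is stated for 829 KEGG alignments, and 315 of them (38.0%) exceed the length of their own feature, if stated lengths are amino acids, and features named for photosynthesis, among the most abundant transcripts of a leaf, had a median level at the 54.4th percentile of annotated features, over the 6 of 7 such features that had a level. The entries were not used, the members are given by ID or by length, no pathway list was counted, and the leaf label was not checked against marker genes.

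A pair of libraries stood apart from their times. The library of 0 h replicate 2 had a mean Spearman correlation of 0.917 with the 2 h libraries, above its 0.886 with the other 0 h libraries. The library of 2 h replicate 2 had 0.910 with the 0 h libraries and 0.892 with the other 2 h libraries. These are correlations across features within libraries, whose features are not independent replicates. Both libraries were kept under their labels, and results are given with all 18 libraries and with these removed.

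Summed over the 77 members, the level was 7042, 731 and 7871 CPM in 0 h replicates 1, 2 and 3. It was 281, 1693 and 312 CPM at 2 h, 530, 377 and 694 CPM at 6 h, and 277, 256 and 474 CPM at 12 h. At 24 h it was 534, 362 and 424 CPM, and at 48 h 334, 498 and 617 CPM. The high libraries were thus 0 h replicates 1 and 3, and the next was 2 h replicate 2. The library of 0 h replicate 2 lay below 2 h replicate 2 and near the highest of the other later libraries. With the most abundant member left out, the 0 h sums were 5975, 671 and 6959 CPM.

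**Figure D1:**
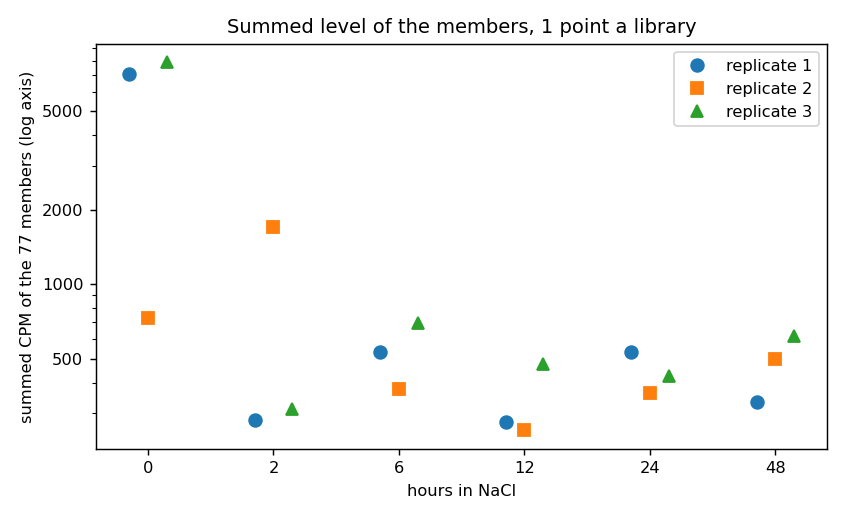
Summed CPM of the 77 members (log axis) in each library, by hours in NaCl, with 1 mark for each of the 3 replicates of a time. Replicates 1 and 3 of 0 h (7042 and 7871 CPM) stand above all other libraries, while replicate 2 of 2 h (1693 CPM) lies above replicate 2 of 0 h (731 CPM).

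The same order was seen transcript by transcript, in the same values that made up these sums. The members were chosen by their 0 h and 2 h means, and most features set beside them were not chosen for a fall. The counts below therefore describe the members and are no separate evidence about the pair. In 76 of 77 members 0 h replicate 2 was the lowest of the 0 h libraries, against 38.7% of all features with a 0 h mean of at least 5 CPM. Its level was 8.31% of the mean of 0 h replicates 1 and 3 in the median member (quartiles 4.08% and 13.5%), against 102% in the median of those 18281 features. It was at most 25% of that mean in 69 members, while the lower quartile over those 18281 features was 74.0%. In 69 members it did not exceed the highest of the 15 later libraries, a count for which no share of all features is given. At 2 h, replicate 2 was the highest library in 70 of 77 members, against 37.3% of features at that 0 h level. It exceeded both other 2 h libraries by over 2-fold in 56 members and was the highest of all later libraries in 48. For neither count is a share of all features given. In 59 members 0 h replicate 2 was below 2 h replicate 2, against 44.8% of features at that level.

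**Figure D2:**
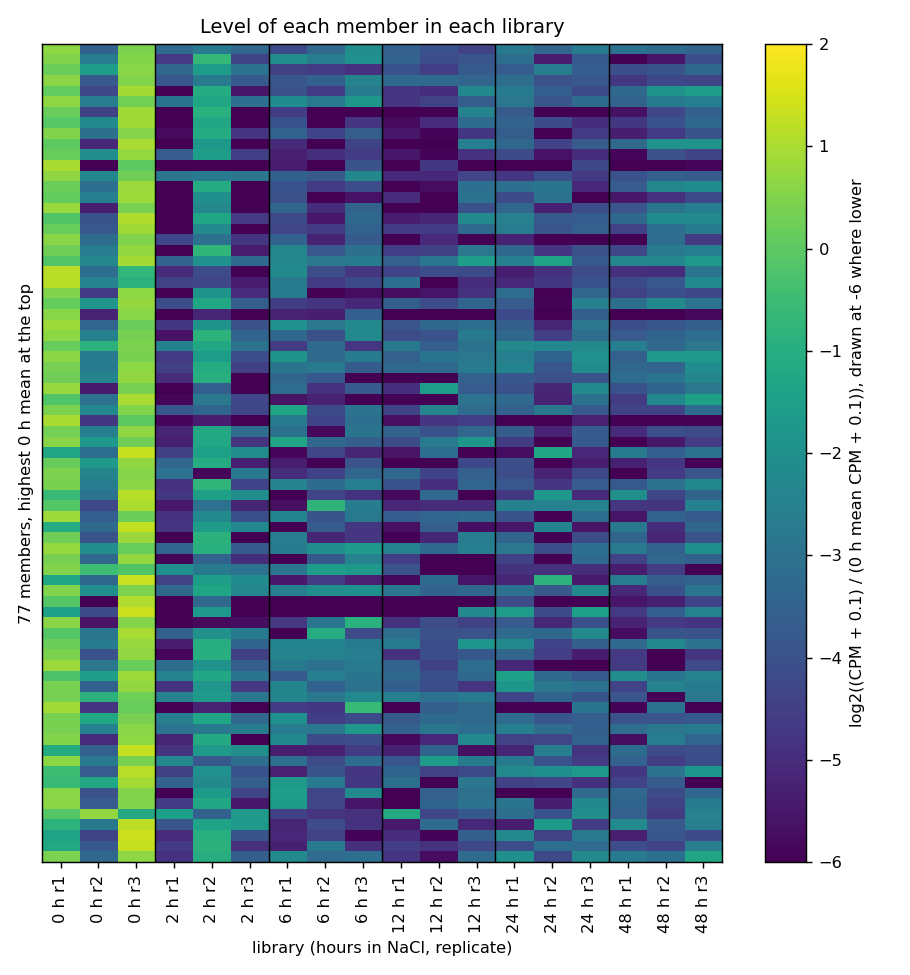
Level of each of the 77 members (rows, highest 0 h mean at the top) in each of the 18 libraries (columns, by hours in NaCl and replicate), as log2 of the ratio to the member's own 0 h mean with 0.1 CPM added to both. The columns of 0 h replicates 1 and 3 are high in nearly every row, and the column of 0 h replicate 2 resembles later columns, being the lowest 0 h library in 76 of 77 rows.

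Every 0 h library lay above every later library in 7 of 77 members, against 1.89% of all features tested, and the rule itself favours such features. The libraries of 0 h replicates 1 and 3 lay above every later library in 72 members, against 6.79% of features. Without 2 h replicate 2 among the later libraries this held in 74, against 8.81% of features. The coefficient of variation over the 0 h libraries was 81.4% in the median member and 21.9% in the median feature of at least 5 CPM. One 0 h library held 55.4% of the 0 h sum in the median member. The most uneven member, a transcript of 1245 nucleotides, had 0.0852, 3.06 and 0.301 CPM at 2 h, against 2.21, 0.196 and 15.5 CPM at 0 h. Replicate 3 held 86.6% of its 0 h sum, and 2 h replicate 2 lay above 0 h replicates 1 and 2.

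**Figure D3:**
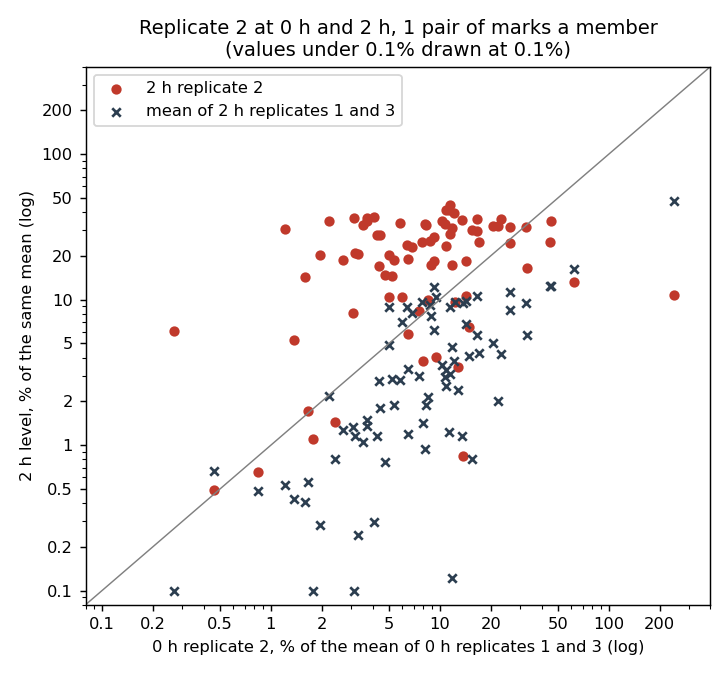
Level of each member in 0 h replicate 2 (x axis, log) against its level at 2 h (y axis, log), both as a percentage of the mean of 0 h replicates 1 and 3, with 2 h replicate 2 as circles and the mean of 2 h replicates 1 and 3 as crosses. Circles lie above the diagonal in 59 of 77 members, with a median of 22.9% for 2 h replicate 2 against 8.31% for 0 h replicate 2.

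The members spanned a wide range of levels at 0 h. Their 0 h means ran from 5.23 to 679 CPM with a median of 22.1 CPM, and 37 lay under 20 CPM, 26 from 20 to under 100 CPM and 14 at 100 CPM or more. Per length, their 0 h means ran from 3.56 to 613 FPKM (counts scaled to transcript length and library depth) with a median of 22.5 FPKM. The means at 2, 6, 12, 24 and 48 h were 15.4%, 8.64%, 6.03%, 7.42% and 7.44% of the 0 h mean in the median member. These shares chose the members and are a description. In the median member, 2 h replicates 1, 2 and 3 were at 2.93%, 30.8% and 4.75% of the 0 h mean. With all libraries, the highest later mean was at 2 h in 41 members and at 6 h in 19. The lowest was at 12 h in 22 and at 6 h in 21. Without the pair of libraries the highest was at 2 h in 11 members and at 6 h in 34, and the lowest at 2 h in 35.

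At each level 0 h replicate 2 was the lowest 0 h library and 2 h replicate 2 the highest 2 h library, in medians over members. Among the 14 most abundant members, the medians over members were 7.45, 79.3 and 6.46 CPM in the 2 h replicates and 232, 23.8 and 325 CPM in the 0 h replicates. The 37 least abundant had medians of 0.341, 2.79 and 0.816 CPM at 2 h and 11.5, 1.22 and 16.5 CPM at 0 h. The 26 members between them had medians of 0.958, 13.8 and 1.63 CPM at 2 h and 66.4, 6.57 and 58.3 CPM at 0 h. There 0 h replicate 1 was above 0 h replicate 3, the reverse of the other classes. In every class 2 h replicate 2 was above 0 h replicate 2 in these medians.

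At the limit of the rule, members and features outside it were close. A member of 1468 nucleotides had a 6 h mean of 24.89% of its 0 h mean, and members of 655 and 1965 nucleotides had their largest later share at 24.8% and 24.65%. Just outside were transcripts of 1948, 1881 and 788 nucleotides with 25.01%, 25.06% and 25.2%. The lowest 0 h mean inside was 5.23 CPM, in a transcript of 615 nucleotides, and the next outside was 4.97 CPM. At the 48 h floor, 0.205 CPM was the lowest mean inside and 0.167 CPM the next outside.

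How many members could be called lower than at 0 h was counted with edgeR's quasi-likelihood F-test, fitted to all features, with a Benjamini-Hochberg adjusted p under 0.05 and a log2 change of at least 1 in size. The same contrasts chose the members, so these counts show only how often the libraries of a time were close enough for a call. Of the 77, 10, 39, 62, 55 and 57 were called lower after 2, 6, 12, 24 and 48 h, against 0.214%, 1.73%, 6.68%, 12.4% and 15.7% of all features. Across the 5 times, 8 members were called at each, against 0.0509% of all features, and 8 at none, against 79.6%. With 0 h replicate 2 and 2 h replicate 2 left out, 66, 70, 74, 73 and 76 members were called at 2, 6, 12, 24 and 48 h (all features 5.48%, 4.27%, 9.07%, 13.3% and 16.0%). The median log2 change over members at 2 h was -2.69 with all libraries and -5.10 without the pair, beside 0.03 and 0.09 over all features tested. At 48 h it was -3.74 with all libraries and -4.22 without the pair, beside -0.10 and -0.02 over all features tested. The comparisons share the 0 h libraries.

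The count at 2 h moved with each library of the pair, and also with libraries of times outside the comparison. With 1 library of 6, 12, 24 or 48 h left out, 2 to 10 members were called lower, against 10 with all libraries. No share of all features is given for those fits. Without 2 h replicate 2, 42 members were called lower, against 1.24% of all features in the same fit, and without 0 h replicate 2, 41, against 1.94%. By edgeR the count was 0 without 2 h replicate 1 or 3 (all features 0.00212% each) and 0 without 0 h replicate 1 (all features 0.0%) or 3 (0.00861%). At an unadjusted p under 0.05, 42 and 41 members were lower without 2 h replicate 1 or 3 (all features 3.81% and 3.4%), and 48 and 39 without 0 h replicate 1 or 3 (all features 3.28% and 3.77%). In 12 members 2 h replicate 2 was under 2-fold the mean of the other 2 h libraries. Among them 0 h replicate 2 was at most 25% of the mean of the other 0 h libraries in 10, and 6 were called lower at 2 h. The 2 h values that set these 12 apart also enter the call, and no share of all features is given for such a split.

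Applied without the pair, the rule took in 245 features. They included 76 of the 77 members (98.7%), which made up 31.0% of the larger list. Of the 169 features added, 98 had a 2 h mean over 25% of the 0 h mean when all 18 libraries were used, and in 53 this was the only condition they missed among the later means. Of the 169, 35 did not reach 5 CPM at 0 h with all libraries. The member lost was a transcript of 844 nucleotides with 5.80, 10.4 and 2.73 CPM at 0 h, the 1 member in which 0 h replicate 2 was the highest 0 h library. More of the 77 members were lost when other libraries were left out. Without 0 h replicate 3 the rule took in 32 features, which held 30 of the 77 members, and without 2 h replicate 1 it took in 47, which held 46. In both cases a library of the pair stayed in the mean of that time, beside a single other library. The list itself changed more without 0 h replicate 2, when it took in 185 features, which held 76 of the 77. Over the 245 features, the mean of 2 h replicates 1 and 3 was 4.93% of the 0 h mean in the median. The libraries not used there were at 10.4% (0 h replicate 2) and 31.7% (2 h replicate 2, quartiles 15.9% and 54.1%) of the mean of 0 h replicates 1 and 3.

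The most abundant member, 1453 nucleotides long, had 1066, 59.4 and 912 CPM at 0 h. It had 73.0, 104 and 66.8 CPM at 2 h, 36.7, 66.0 and 160 CPM at 6 h and 58.5, 42.5 and 31.5 CPM at 12 h. At 24 h it had 99.1, 64.8 and 106 CPM, and at 48 h 86.5, 72.6 and 61.9 CPM. Its 0 h replicate 2 lay among the later libraries. No difference among the 5 later times was called (edgeR adjusted p = 0.69), in a fit whose spread includes the 0 h libraries. All libraries of 12 h nevertheless lay below every library of 2, 24 and 48 h, while those of 6 h overlapped them.

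Among the 7 members whose 0 h libraries all lay above every later library, TRINITY_DN9365_c0_g1_i1_2 (796 nucleotides, 506 FPKM on average at 0 h) had the highest 0 h mean. Its levels were 354, 106 and 464 CPM at 0 h, 29.7, 101 and 39.8 CPM at 2 h, and 13.6, 12.7 and 10.5 CPM at 6 h. They were 19.2, 13.5 and 23.2 CPM at 12 h, 24.0, 48.8 and 24.0 CPM at 24 h and 18.0, 20.3 and 30.5 CPM at 48 h. The highest 2 h library, at 101 CPM, was close to the lowest 0 h library, at 106 CPM, and both were replicate 2. The log2 change at 48 h against 0 h was -3.75 ± 0.55 (SE, n = 3 each; edgeR adjusted p = 8.4e-05, in a contrast that chose it). Its level at 6 h was called lower than at 2 h, with a log2 change of -2.21 ± 0.51 (SE; edgeR adjusted p = 0.033), and without the pair of libraries by -1.50 ± 0.33 (adjusted p = 0.023). By edgeR this call was lost with only the libraries of both times (adjusted p = 0.094), without 2 h replicate 2 or 3 (0.12 and 0.069), and without any 1 of the 6 h libraries (0.065 to 0.13). It was also lost by limma at each of its 3 settings, with an adjusted p of up to 0.079. The 3 libraries of 6 h were below all 3 of 2 h.

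The second, TRINITY_DN15748_c0_g1_i1_1 (2083 nucleotides, 27.6 FPKM on average at 0 h), had 48.5, 24.4 and 58.9 CPM at 0 h, 7.84, 18.7 and 5.45 CPM at 2 h and 1.73, 4.57 and 1.56 CPM at 6 h. It had 6.42, 3.54 and 5.41 CPM at 12 h, 9.29, 9.12 and 9.20 CPM at 24 h and 7.27, 4.37 and 6.09 CPM at 48 h. Its lowest level was thus at 6 h, and its 24 h libraries lay above all libraries of 6, 12 and 48 h. The change at 48 h against 0 h was -2.89 ± 0.49 on the log2 scale (SE; edgeR adjusted p = 0.00032, in a contrast that chose it). At 6 h against 2 h it was -2.03 ± 0.49 (SE; edgeR adjusted p = 0.037), and without the pair -1.35 ± 0.40 (adjusted p = 0.08), which was not called. The edgeR call was also lost with only the libraries of both times (adjusted p = 0.18), without 2 h replicate 1 or 2 (0.067 and 0.14), without 6 h replicate 1 or 3 (0.19 and 0.12) and without 12 h replicate 3 (0.05 after rounding). By limma it was lost at each of the 3 settings (adjusted p from 0.058 to 0.066). From 12 h to 24 h the change of 0.84 ± 0.47 was not called (adjusted p = 0.31).

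The rule bounds every later mean from above and the 48 h mean from below, and in a member whose 2 h replicate 2 is high, the limit at 2 h also holds 2 h replicates 1 and 3 low. Calls among the later times therefore use values that took part in choosing the members, and they are a description from which no support is drawn. The edgeR calls also take their spread from the fit of all 6 times, 0 h included. At 0 h the coefficient of variation was 81.4% in the median member and 21.9% in the median feature of at least 5 CPM. Fewer calls in the members than in all features are therefore not read as steadier later levels. Of 77 members 8 differed among 2, 6, 12, 24 and 48 h (edgeR adjusted p under 0.05), against 34.9% of all features. In 5 of these 8 the highest later mean was at 2 h and in 3 at 6 h. They included both transcripts named above. Without the pair of libraries 26 members differed, against 37.2% of all features, and 7 of the 8 were among them. In 13 of the 26 the highest later mean was then at 6 h and in 12 the lowest was at 2 h. Which time was lowest thus changed with the pair: 2 h was lowest in 6 of 77 members with all libraries and in 35 without them.

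Between 48 h and 2 h, 0 members were called higher at 48 h (all features 10.6%) and 2 lower (all features 12.7%) by edgeR. At an unadjusted p under 0.05 the counts were 0 higher (all features 18.3%) and 12 lower (21.2%). DESeq2's test called 0 higher (all features 13.8%) and 9 lower (14.1%), and limma on log2(FPKM + 1) called 0 higher (6.81%) and 2 lower (19.0%). With the pair left out, 15 members were called higher (all features 11.1%) and 2 lower (all features 12.0%). With only 2 h replicate 2 left out, 6 were called higher (all features 9.76%) and 1 lower (all features 11.4%).

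The 2 members called lower at 48 h than at 2 h with all libraries differed in how far they rested on 2 h replicate 2. The member of 1468 nucleotides had 18.7, 9.51 and 11.8 CPM at 0 h, 3.36, 2.03 and 1.59 CPM at 2 h and 1.77, 4.27 and 3.94 CPM at 6 h. It had 0.774, 0.0909 and 0.0451 CPM at 12 h, 0.378, 0.365 and 0.331 CPM at 24 h and 0.222, 0.48 and 0.096 CPM at 48 h. All libraries from 12 h on lay below all libraries of 2 and 6 h. The log2 change at 48 h against 2 h was -3.11 ± 0.75 (SE; edgeR adjusted p = 0.0058), and without the pair -3.21 ± 0.82 (adjusted p = 0.0096).

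The other, of 1993 nucleotides, had 8.10, 10.9 and 30.0 CPM at 48 h, against 19.8, 322 and 24.7 CPM at 2 h. Its log2 change was -2.90 ± 0.99 (SE; edgeR adjusted p = 0.038), and without the pair -0.45 ± 0.55 (adjusted p = 0.58). The library of 2 h replicate 2 alone was far above the rest there, and the 48 h and 2 h libraries overlapped without it.

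**Figure D4:**
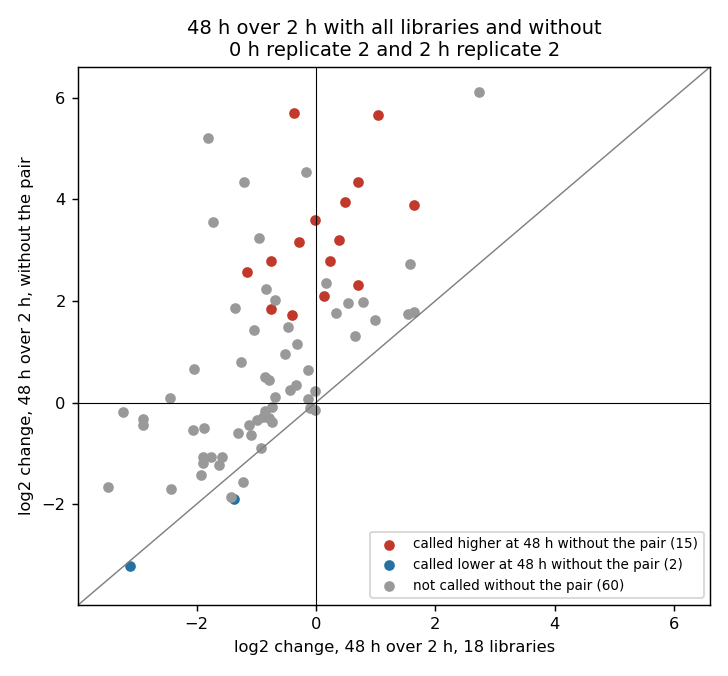
Fitted log2 change of each member at 48 h over 2 h with all 18 libraries (x axis) and without 0 h replicate 2 and 2 h replicate 2 (y axis); colours show calls in the fit without the pair. With all libraries the change was above 0 in 18 of 77 members, and without the pair in 48 of 77, of which 15 were called higher.

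In the 15 members called higher at 48 h without the pair, every 48 h library lay above 2 h replicates 1 and 3. Their log2 changes ran from 1.73 to 5.70 with a median of 3.15, against a median of 0.13 in the same members with all libraries. In 14 of the 15, 2 h replicate 2 was above every 48 h library. Over all 77 members, the 48 h libraries all lay above 2 h replicates 1 and 3 in 34, against 27.7% of all features.

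Of these, 2 are given by ID, and they were chosen after these values were seen, as the largest called changes with at least 1 CPM in every 48 h library. TRINITY_DN19944_c0_g2_i2_3 (2098 nucleotides) had 159, 4.61 and 312 CPM at 0 h, 0.724, 47.8 and 0.601 CPM at 2 h and 4.71, 2.16 and 7.63 CPM at 6 h. It had 1.46, 0.864 and 27.3 CPM at 12 h, 15.7, 7.42 and 12.2 CPM at 24 h and 16.6, 40.6 and 43.9 CPM at 48 h. Replicate 2 was far above the others at 2 h and far below them at 0 h. Its log2 change at 48 h against 2 h was 5.65 ± 1.34 without the pair (SE; edgeR adjusted p = 0.0063) and 1.04 ± 1.44 with all libraries (adjusted p = 0.63).

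The second, TRINITY_DN7427_c0_g1_i3_8 (1048 nucleotides), had 157, 2.20 and 118 CPM at 0 h, 0.468, 19.7 and 0.644 CPM at 2 h and 8.74, 2.86 and 8.41 CPM at 6 h. It had 0.865, 1.18 and 5.63 CPM at 12 h, 8.97, 2.25 and 5.43 CPM at 24 h and 6.16, 12.4 and 15.3 CPM at 48 h. Replicates 1 and 2 of 12 h lay below every library of 6, 24 and 48 h. The log2 change at 48 h against 2 h was 4.33 ± 0.90 without the pair (SE; edgeR adjusted p = 0.0026) and 0.70 ± 1.23 with all libraries (adjusted p = 0.72).

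**Figure D5:**
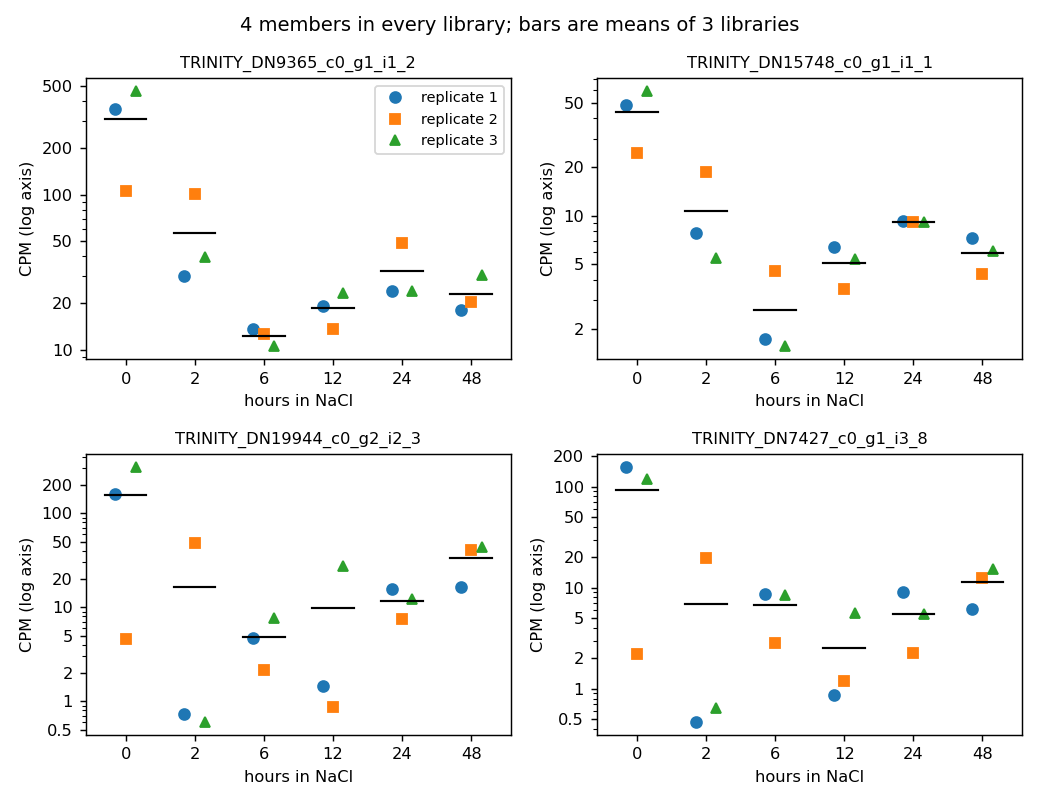
CPM (log axis) of the 4 members given by ID in every library, by hours in NaCl; marks are replicates and bars the means of 3 libraries. In the upper pair replicate 2 is the lowest 0 h and the highest 2 h library yet stays below every 0 h library, while in the lower pair replicate 2 is higher at 2 h than at 0 h (47.8 against 4.61 CPM and 19.7 against 2.20 CPM).

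Between neighbouring later times few members were called by edgeR. From 2 h to 6 h, 0 were called higher at 6 h (all features 1.77%) and 2 lower (0.597%), both named above. At an unadjusted p under 0.05 the counts were 3 (all features 9.8%) and 13 (7.45%). Without the pair 6 were called higher (2.06%) and 1 lower (1.22%). From 6 h to 12 h no member was called (all features 0.0663% higher and 0.175% lower), with 1 higher (6.06%) and 6 lower (6.59%) at an unadjusted p under 0.05, and without the pair 0 were called higher (0.406%) and 3 lower (0.689%). From 12 h to 24 h none was called (1.96% higher and 2.99% lower), with 3 higher (9.87%) and 1 lower (12.6%) at an unadjusted p under 0.05, and without the pair 1 was called higher (2.89%) and 1 lower (3.74%). From 24 h to 48 h 0 were called with all libraries (0.144% higher and 0.292% lower) and 0 without the pair (0.423% and 0.707%), with 1 higher (5.25%) and 0 lower (6.9%) at an unadjusted p under 0.05 with all libraries. In both directions together, DESeq2's test called 7, 4, 2 and 0 members in the 4 steps, against 6.71%, 4.06%, 9.78% and 2.47% of all features. On log2(FPKM + 1) limma called 0, 1, 0 and 0, against 2.71%, 0.853%, 7.21% and 0.971% of all features.

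The later libraries of a time also differed among themselves in the members. The same values over all features are not given, so these are not read as particular to the members. At 12 h replicate 3 was the highest library in 44 of 77 members, and at 48 h replicate 3 in 43. At 6 h replicate 1 was highest in 34 and at 24 h replicate 1 in 35. The median coefficient of variation over members was 109%, 60.9%, 61.9%, 60.4% and 53.5% in the libraries of 2, 6, 12, 24 and 48 h.

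Members also split by which 0 h library was highest, replicate 3 in 49 and replicate 1 in 27. In 18 members 0 h replicate 3 was at least 2-fold replicate 1, and in the other 59 it was below that. At 2 h replicate 2 was the highest library in all 18 of the first and in 52 of the other 59. At 6 h the highest library was replicate 2 in 13 of the 18 and in 4 of the 59. The members were divided here by 0 h libraries, and the shares at 2 h and 6 h were not tested. All of these libraries also took part in choosing the members.

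What the members share beyond level is limited to their IDs and lengths. The median member was 1577 nucleotides long (range 331 to 4940), against 1009 over all features tested and 2222 over those with at least 5 CPM at 0 h. The isoform number in the ID was 1 in 45 members (58.4%), against 66.8% of all features tested. The IDs end in a digit from 1 to 9 whose meaning is not given in the sources used here. It was 1 in 33 members and 3 in another 33, that is 42.9% each, against 13.5% and 11.5% of all features tested. Of the 18 members in which 0 h replicate 3 was at least 2-fold replicate 1, 15 end in 3. The 245 features of the rule without the pair ended in 1 in 36.3% and in 3 in 39.6%. The part of the digit in the choice of members was not tested.

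The same conditions were also set with each other time as the single high one, without the 48 h floor. They took in 84 features for 0 h, 31 for 2 h, 6 for 6 h, 7 for 12 h, 6 for 24 h and 129 for 48 h. With all 18 libraries, the counts for 48 h and 0 h, the ends of the course, were the highest of the 6. Without the pair the rule for 0 h, with its 48 h floor, took in 245 features, and the other times were not counted that way. The order of the times is therefore given for all libraries only.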

How the data were processed

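RNA of leaves was measured in 18 libraries, 3 at each of 6 times. The authors deposited estimated counts per Trinity transcript, of which 89.6% were not whole numbers, and also FPKM values. No source used here names the counting tool or the aligner. Each library held 17933939 to 24731213 estimated counts. The number of per-sample columns not used was 0. Length was computed as count over FPKM with a scale per library, and 99.98% of lengths came out whole to within 0.1 nucleotides. No sequence of the transcripts was used here.

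Groups and replicate numbers came from the sample titles. Counts were rounded, filtered with filterByExpr by time and scaled by TMM. A model of 6 groups was fitted to 45222 features with edgeR 4.0.16 (quasi-likelihood F-test, Benjamini-Hochberg adjustment over all of them), with a common dispersion of 0.244. SE was the log2 change over the square root of F. A call needed an adjusted p under 0.05 and, for contrasts of 2 times, a log2 change of at least 1. DESeq2 1.42.0 and limma 3.58.1 (R 4.3.3) on log2(FPKM + 1) were alternatives, the latter with features of at least 1 FPKM in 3 libraries. No library pair of a time agreed within sampling noise (chi-square per degree of freedom from 10.9 to 104).

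The members and lists were chosen with earlier results of these data known. IDs are printed for the 2 members with the highest 0 h mean among those without overlap and for up to 2 called higher at 48 h than at 2 h; since all libraries gave none, 2 were taken from the fit without the pair of libraries. Other members singled out are given by length. No 2 features share an ID up to the isoform number together with the final digit, so other transcripts of a member's assembled gene could not be described.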

Additional observations from a re-analysis of the deposited data

How the results depend on the processing

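The rule took in 149 features with medians in place of means, 14 at an eighth and 469 at 50% of the 0 h mean, and 245 without 0 h replicate 2 and 2 h replicate 2; leaving out 1 library gave 32 (without 0 h replicate 3, 30 of the 77 among them) to 185 (without 0 h replicate 2). DESeq2 size factors, no filter, FPKM values and unfiltered library totals gave 81, 72, 111 and 77. Calls lower than 0 h ranged over single libraries left out from 0 to 42, 7 to 58, 36 to 69, 37 to 71 and 36 to 69 for 2, 6, 12, 24 and 48 h. Without the pair they were 66 at 2 h and 70 at 6 h. DESeq2's test called 37 at 2 h and 64 at 6 h. With at least 10 CPM in 3 libraries, which left 39 members, 6, 24, 33, 36 and 31 were called at 2, 6, 12, 24 and 48 h. Using only the libraries of the times compared, 0 were called at 2 h and 5 at 6 h. At 2 h limma called 6 on log2(FPKM + 1), 3 on the same scale with no filter and 0 on log2(FPKM + 0.1), which called 19 at 6 h. Shares of all features are given above for some of these fits only. The other counts describe the members alone, and methods cannot be compared by them.

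Here too, counts without a share of all features given above describe the members alone. Members differing among the later times numbered 14 by DESeq2, 5 with at least 10 CPM, 5 by limma at each of its 3 settings, 26 without the pair and 5 to 10 leaving out 1 library. Higher at 48 h than at 2 h were 15 without the pair, and 0 to 6 leaving out 1 library. Lower at 48 h were 9 by DESeq2, 4 with at least 10 CPM, 6 by limma on log2(FPKM + 0.1), 1 with only the libraries of both times, and 1 to 9 leaving out 1 library. For 6 h against 2 h, both directions together, DESeq2 called 7, the fit without the pair 7, the fit of those times only 0, limma 0, and leaving out 1 library 0 to 4. For 12 h against 6 h these were 4 by DESeq2, 1 with at least 10 CPM, 1 by limma at each setting, 3 without the pair and 0 to 2 leaving out 1 library. For 24 h against 12 h they were 2 by DESeq2, 1 with those times only, 2 without the pair and 0 to 2 leaving out 1 library; for 48 h against 24 h they were 0 throughout. The 0 h libraries lay above all later ones in 74 members without the pair, and in 7 to 72 leaving out 1 library. Fewer than 77 members were tested with at least 10 CPM in 3 libraries (39), by DESeq2 and filtered limma (76 each), and in most fits of the compared times only. All 77 were tested in the fits that left out 1 library or the pair. The cause of the differences between fits was not tested.

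Replicate numbers did not pair the libraries: 5 of 45 same-number correlations of deviations exceeded 0.1 (range -0.37 to 0.198), and 3 of 18 libraries correlated best with their own number. With a replicate block 1, 26, 60, 52 and 51 members were called lower at 2, 6, 12, 24 and 48 h. In that fit 6 differed among later times, 1 was lower at 48 h than at 2 h and 0 changed from 2 h to 6 h. No share of all features is given for the replicate block.

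The log2 change of 48 h against 0 h in the first pair of members named by ID, and of 48 h against 2 h in the other pair and in the member of 1468 nucleotides, kept its sign under every alternative run. So did that of 6 h against 2 h in the first pair, the 2 members that edgeR called in that step with all libraries, though many alternatives lost one or both calls. Depth limits the low values: member means went down to 0.0271 CPM at 6 h and 0.0455 CPM at 12 h, in libraries of 17933939 to 24731213 counts.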
